A study of Mus musculus with 10 samples.

Results

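The genotype by light difference asks whether light changed a retinal transcript by the same amount in CLN3-deficient and in wild-type mice. For each gene, unexposed *Cln3Δex7/8* retinas were subtracted from light-exposed, NaCl-injected *Cln3Δex7/8* retinas, and from this the same light effect of wild-type retinas (high light minus no light) was subtracted, all on the log2 scale. The comparison used 8 of the 10 arrays of the series, 2 per group, and was made for 19505 genes. A positive difference means that a transcript rose more, or fell less, in *Cln3Δex7/8* retinas, and a negative difference means that it rose less, or fell more.

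Total retinal RNA was measured in *Cln3Δex7/8* mice, a knock-in model of juvenile neuronal ceroid lipofuscinosis (jNCL) that lacks exons of the lysosomal gene *Cln3*, and in wild-type mice. Both genotypes carried a light-sensitive variant of *Rpe65* and wild-type mice were littermates, per the methods, whereas the strain label of the wild-type samples is Balb/c and that of the others names the *Cln3* mutation alone. Mice of 8 to 10 weeks spent 16 h in the dark and had their pupils dilated before exposure to bright white light. High light, the label of the exposed wild-type group, was 15000 lux for 60 min. The labels of the exposed *Cln3Δex7/8* group read light plus NaCl and state no dose; per the treatment protocol the experiments with minocycline and its solvent used low light, 10000 lux for 30 min. Intraperitoneal NaCl injection is named for exposed *Cln3Δex7/8* mice and for no other group of the comparison. Dose, injection, genotype and the strain given by the labels therefore cannot be told apart in the difference. A further group of 2 light-exposed *Cln3Δex7/8* mice received minocycline at 45 mg/kg, and its arrays entered the estimate of the spread but not the difference itself.

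Sex was also aligned with the comparison. Over *Eif2s3y*, *Uty* and *Kdm5d*, all on the Y chromosome, the mean was 10.75 and 10.88 on the 2 unexposed wild-type arrays and 11.23 and 11.32 on the 2 NaCl-injected arrays. On the exposed wild-type arrays it was 3.59 and 3.35, and on the unexposed *Cln3Δex7/8* arrays 3.57 and 3.34. Their genotype by light differences of 18.16, 16.32 and 11.01 exceeded those of all other genes. One minocycline array carried Y-linked transcripts (11.52) and the other did not (3.69). A difference that follows the sexes has the same sign pattern over the 8 arrays as a genotype by light difference, and both cannot be told apart within them. The light effect of each genotype also compares arrays with and without Y-linked transcripts, in opposite directions in wild-type and *Cln3Δex7/8* retinas. When a term for Y-linked transcripts was added to the limma fit, the size of that term came from the 2 minocycline arrays alone. Under this Y term 2 genes (0.0103%) were higher and 1 (0.00513%) lower at an adjusted p under 0.05, 0.0154% in all, and 622 (3.19%) and 692 (3.55%) at an unadjusted p under 0.05, 6.74% in all. The *Cln3* cluster itself had values of 10.72 and 10.30 in unexposed and 10.25 and 10.48 in exposed wild-type retinas, and of 9.14 and 9.18 in unexposed and 10.13 and 9.46 in exposed *Cln3Δex7/8* retinas. The position of its probes relative to the deletion is not known here, so that these values check no label. Its genotype by light difference was 0.78 (95% confidence interval -0.14 to 1.70, limma); intervals below are of the same kind.

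Transcripts typical of tissues other than retina were higher on some arrays than on others, and their source was not tested. The 19 skeletal muscle genes had a mean of 8.81 on 1 unexposed *Cln3Δex7/8* array and of 5.53 to 5.72 on the other 7 arrays compared. The 24 lens genes had means of 6.41 and 6.72 on the unexposed wild-type arrays and of 6.60 and 5.88 on the NaCl-injected arrays, against 5.41 to 5.73 on the other 4. Rod genes marked every array as retina, with means over 23 phototransduction genes of 15.36 to 16.54. In whole-retina RNA, fewer cells of a type and less RNA per cell cannot be told apart.

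Bright light damages photoreceptors and mobilizes microglia, the resident macrophages of the retina. *Cln3* encodes a membrane protein of lysosomes, whose loss leads to storage of undegraded material in neurons. Damaged tissue can activate the type I interferon pathway, in which nucleic acid sensors and receptors lead to activation of transcription factors such as STAT2 and IRF9, which switch on antiviral genes through the interferon-stimulated response element. *Irf7* amplifies this response and *Usp18* limits it. A genotype by light difference can arise in different ways, from a rise in one genotype, from a fall in the other, or from opposite movements, so that the light effect of each genotype is given beside it.

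In the limma fit over all 5 groups, 0 genes passed an adjusted p of 0.05 in either direction, and the smallest adjusted p was 0.0955. At an unadjusted p under 0.05 from limma, 1203 genes (6.17%) were higher and 967 (4.96%) lower, 11.1% of all genes tested, where 975 genes would be found by chance. When the fit was restricted to the 4 groups compared, 68 genes (0.349%) were higher and 11 (0.0564%) lower at an adjusted p under 0.05, 0.405% in all, and 1284 (6.58%) and 1032 (5.29%) at an unadjusted p, 11.9% in all. With trend and robust settings 3 and 0 passed, and with the methods' t-test, extended to 4 groups with a pooled spread, 3 and 0 passed. Between the minocycline arrays, which only the fit over 5 groups used, 119 genes lay more than 2 log2 units apart, against 9 to 52 genes in the other pairs. Leaving out the unexposed *Cln3Δex7/8* array without muscle transcripts left 722 genes higher and 630 lower by the unadjusted threshold, and 1 and 9 by the adjusted one. Of the 68 higher genes of the restricted fit, 27 had a light effect above 1 in *Cln3Δex7/8* and under 1 in size in wild-type retinas, 15 had one above 1 in both, 19 had one below -1 in wild-type and under 1 in size in *Cln3Δex7/8* retinas, and 7 moved by more than 1 in opposite directions. Of the 11 lower genes, 10 had a light effect above 1 in wild-type retinas only. Higher genes were thus of 2 main kinds, those with a positive light effect in *Cln3Δex7/8* retinas and those with a negative one in wild-type retinas, and lower genes were mainly those with a positive light effect in wild-type retinas.

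**Figure D1:**
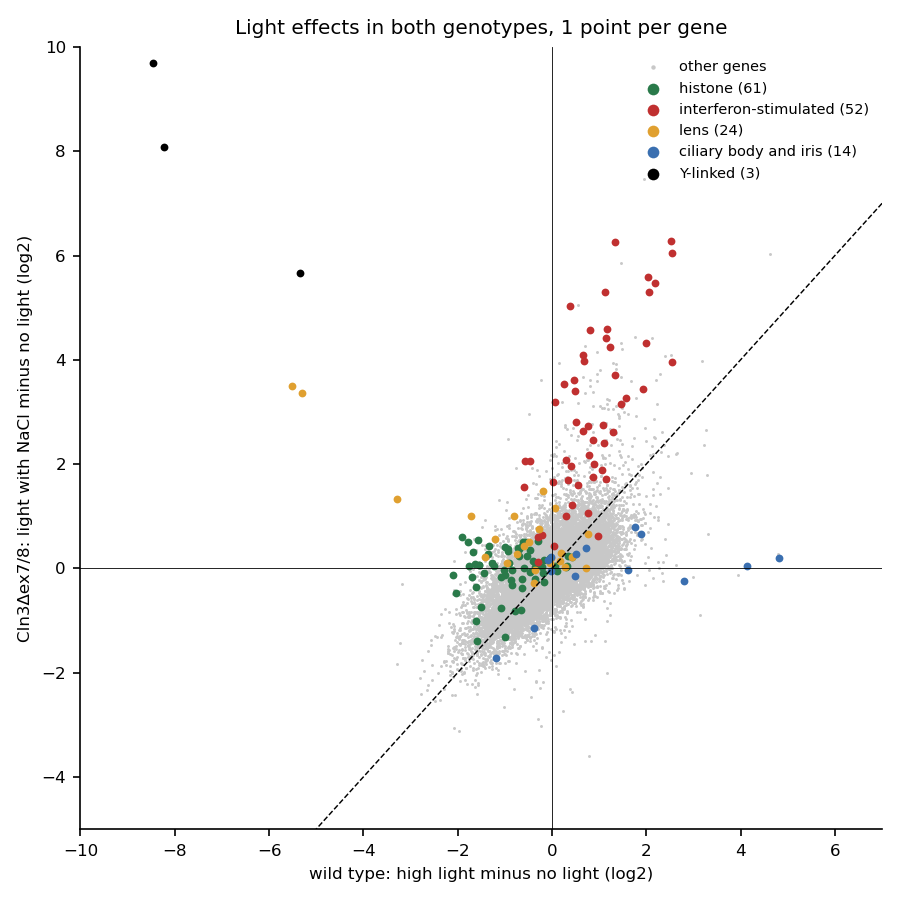
Light effect of each of the 19505 genes in wild-type retinas (horizontal axis, log2) and in *Cln3Δex7/8* retinas (vertical axis, log2); points on the dashed line have a genotype by light difference of 0. Most interferon-stimulated genes lie above the line through their light effect in *Cln3Δex7/8* retinas (median 2.61 for antiviral effectors), histone genes through that in wild-type retinas (median -0.84), and ciliary body and iris genes with a large difference lie below it on the right.

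Interferon-stimulated genes were among the first kind, beside *Egr1*. *Cryaa* also had a positive light effect in *Cln3Δex7/8* retinas, but a negative one in wild-type retinas. The Y-linked genes had the same signs, which followed the sexes on the arrays. Of 35 measured antiviral effectors, 34 had a difference above 0, and 23 were higher and 0 lower at an unadjusted p under 0.05 (65.7%, against 6.17% and 4.96% of all genes). Their median difference was 1.67, with a median light effect of 2.61 in *Cln3Δex7/8* and 0.78 in wild-type retinas, where the median difference of all genes was -0.02. Of 11 interferon-inducible GTPases, which attack the membranes around intracellular pathogens, 9 were higher and 0 lower, with a median of 1.98. Without 1 unexposed wild-type array that held more microglial transcripts than its partner this median was 1.64, and without the partner 3.12. In the ISG15 conjugation system, which tags proteins with a ubiquitin-like modifier, 3 of 6 genes were higher (median 2.17), and in the immunoproteasome 4 of 5 were higher (median 1.66). No member of these lists was lower at that p.

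*Irf7* had the largest difference outside the Y-linked and lens genes. Its values were 6.94 and 7.05 in unexposed and 8.18 and 9.73 in exposed wild-type retinas, and 6.32 and 6.51 in unexposed and 13.82 and 13.96 in exposed *Cln3Δex7/8* retinas. The difference was 5.51 (standard error 0.87, limma adjusted p = 0.0955, and 0.00147 over the 4 groups alone), with a light effect of 7.47 in *Cln3Δex7/8* and 1.96 in wild-type retinas. Both genotypes thus moved upward and no pair overlapped its unexposed pair. *Usp18*, the protease that removes ISG15 and dampens the interferon receptor, had values of 7.24 and 7.12 without light, then 8.97 and 8.05 with light in wild-type retinas, and of 6.70 and 6.03, then 12.55 and 12.69 in *Cln3Δex7/8* retinas. It differed by 4.92 (standard error 1.20, adjusted p = 0.208 by limma), and again no pair overlapped its unexposed pair. *Trim30a*, an immune ubiquitin ligase, had overlapping pairs in wild-type retinas (5.16 and 4.35 with light, 4.72 and 5.27 without) and stood at 7.67 and 8.08 in exposed against 4.32 and 4.19 in unexposed *Cln3Δex7/8* retinas. Its difference was 3.86 (standard error 0.68, limma adjusted p = 0.125).

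**Figure D2:**
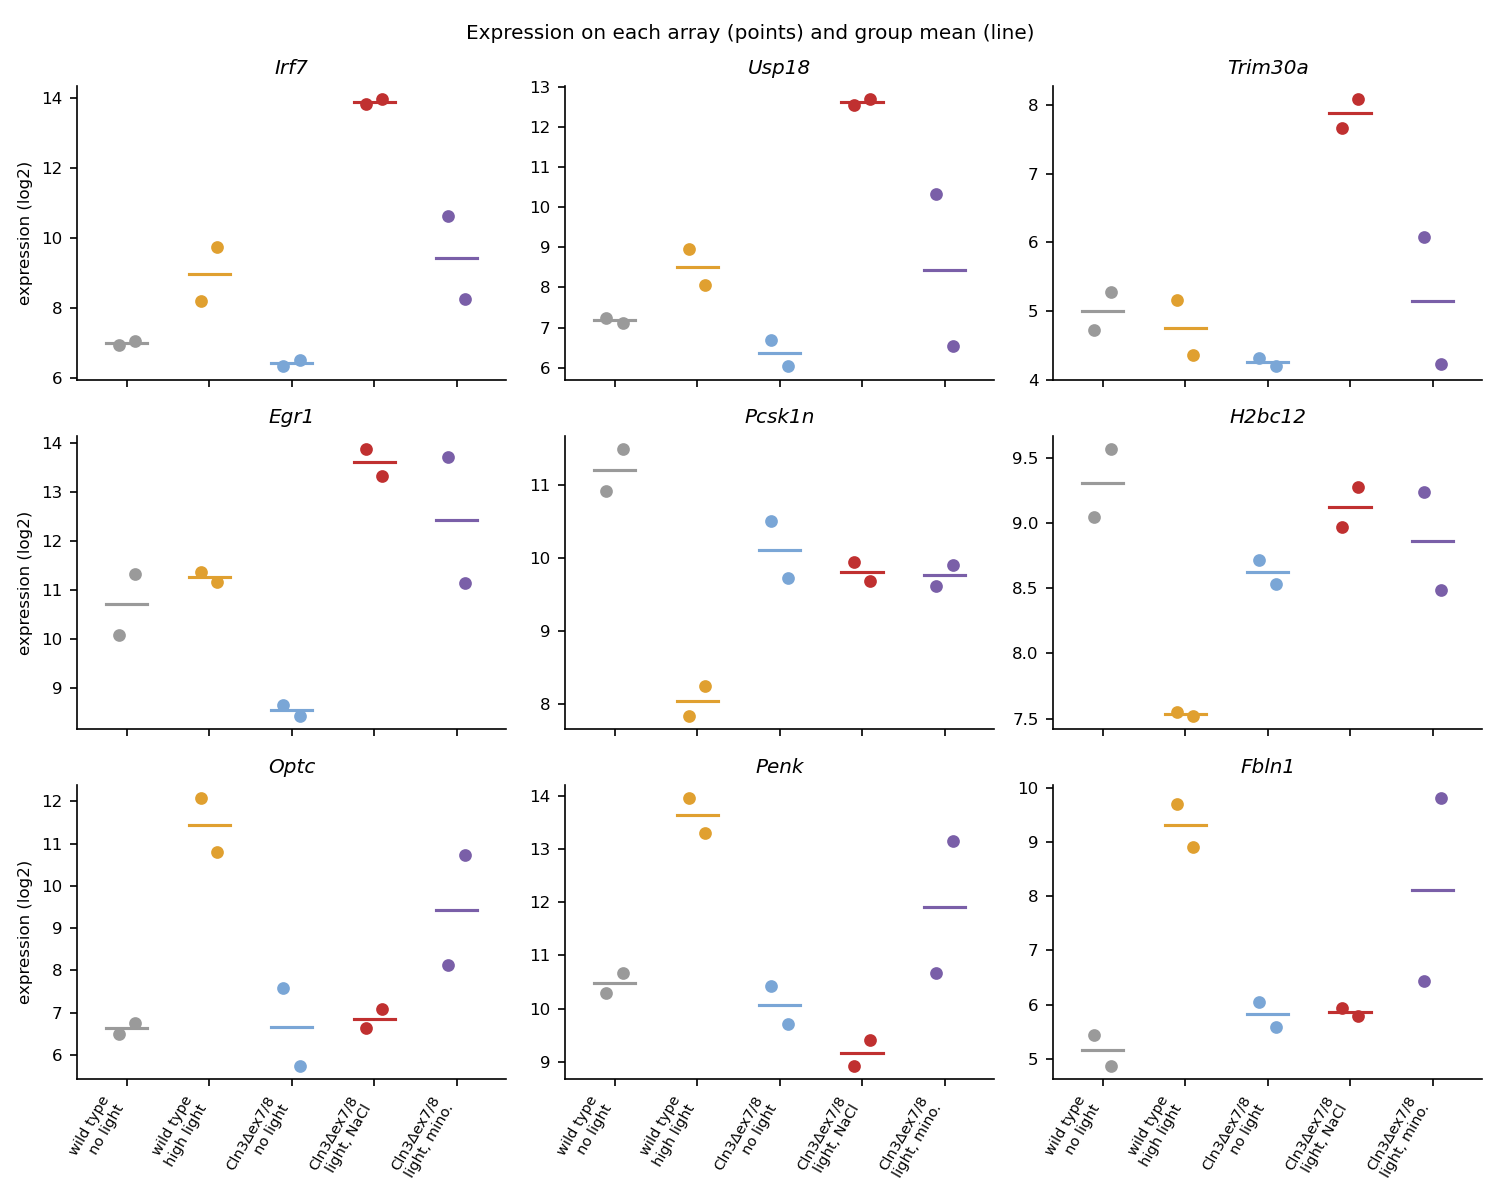
Expression of 9 genes on each array (vertical axes, log2), with a line at the mean of each pair; mino. stands for minocycline, a group outside the comparison. *Irf7*, *Usp18*, *Trim30a* and *Egr1* are highest on the NaCl-injected arrays, *Pcsk1n* and *H2bc12* are lowest on the exposed wild-type arrays, and *Optc*, *Penk* and *Fbln1* are high on the exposed wild-type arrays and on 1 minocycline array.

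Other members differed in how wild-type retinas behaved. *Ifit1*, *Ifit3* and *Ifit3b*, which bind foreign RNA, had light effects of 2.52, 2.04 and 2.06 in wild-type and of 6.28, 5.58 and 5.30 in *Cln3Δex7/8* retinas, so that the differences of 3.75, 3.55 and 3.24 came on top of a positive light effect in wild-type retinas. *Ifit3* and *Ifit3b* are close copies whose probes may share transcripts. *Ifit2*, of the same family, moved in opposite directions, from 8.10 and 8.14 to 7.53 and 7.53 in wild-type and from 7.65 and 7.87 to 9.35 and 9.29 in *Cln3Δex7/8* retinas (difference 2.15, standard error 0.43, limma adjusted p = 0.151). The ubiquitin ligase and antibody receptor *Trim21* behaved likewise (light effect -0.76 in wild-type, 1.93 in *Cln3Δex7/8* retinas, difference 2.68). *Ly6c1*, a surface protein of monocytes and endothelium, had light effects of -0.93 and 2.49 and differed by 3.42 (standard error 0.74, adjusted p = 0.000633 by limma over the 4 groups). *Rtp4* and *Parp12*, both antiviral effectors, had differences of 3.44 and 3.02, with wild-type light effects of 0.66 and 1.23. *Bst2*, which tethers budding virus to the cell, had an uneven pair, as its exposed *Cln3Δex7/8* values were 12.95 and 9.02, and its difference of 4.63 ranged from 1.75 to 7.52 over the 16 choices of 1 array per group. *Ube2l6*, the conjugating enzyme of ISG15, and *Ifi211*, a DNA-binding protein of the Ifi200 family, had differences of 4.17 (standard error 1.27) and 4.41 (standard error 1.48).

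Of 21 measured genes of interferon signaling and transcription, upstream of these effectors, 5 were higher at an unadjusted p and 0 lower (23.8%, against 6.17% higher and 4.96% lower over all genes), with a median of 0.36. *Stat2* had values of 9.60 and 9.50 in both unexposed pairs, of 10.66 and 10.48 in exposed wild-type and of 12.72 and 12.62 in exposed *Cln3Δex7/8* retinas (difference 2.10, standard error 0.60, limma adjusted p = 0.250). *Irf9*, its partner in the complex, had a difference of 2.56 (standard error 0.78). Of 18 genes of nucleic acid sensing 8 were higher and 0 lower, with a median of 1.41, and none passed an adjusted p over 5 groups. *Ifih1*, a sensor of double-stranded RNA, had a difference of 2.35 (standard error 0.56), with a light effect of 2.67 in *Cln3Δex7/8* and 0.32 in wild-type retinas. *Zbp1*, a sensor of Z-form nucleic acid, lay between 4.28 and 4.35 on the 4 wild-type arrays and at 4.10 and 4.26 in unexposed *Cln3Δex7/8* retinas, and at 5.43 and 5.75 on the NaCl-injected arrays (difference 1.42, standard error 0.29, limma adjusted p = 0.156). In MHC class I presentation 7 of 16 genes were higher and 0 lower (median 0.99), with *Tap1*, which carries peptides into the endoplasmic reticulum, at 2.51 (standard error 0.62) and *H2-Q4*, a class I molecule with close relatives, at 2.63 (standard error 0.73). *Psme1*, a subunit of the proteasome activator PA28, had a difference of 2.02 with a light effect of -0.40 in wild-type retinas.

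These medians depended on the Y term. With it, the median turned to -0.69 for antiviral effectors, to -1.92 for the GTPases and to -1.09 for MHC class I. The difference of *Irf7* went from 5.51 to 0.81 and that of *Trim30a* from 3.86 to 0.18, and *Bst2* had one of 4.13. The values behind this are those of the minocycline arrays: the mean over antiviral effectors was 8.08 on the array with and 6.32 on the array without Y-linked transcripts, against 9.19 and 9.22 on the NaCl-injected arrays and 7.56 and 7.2 in exposed wild-type retinas. The minocycline arrays with and without Y-linked transcripts also differed in the mean over retinal pigment epithelium genes, at 8.57 and 10.66. The Y term rests on these arrays alone and cannot measure the part of sex in the interferon difference, which was not tested.

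The interferon-stimulated response element gives a sequence to set beside these values. It was searched as a pair of GAAA runs with any 2 bases between them, on both strands of RefSeq promoters (GRCm38.p6, 250 bases before to 50 after the start of a gene), where 15691 of the 19505 genes had an entry. The motif occurred in 3.94% of these genes, in 5.69% of the 985 higher and 4.61% of the 759 lower genes with a promoter, in 15 of the 60 higher genes of the restricted fit with a promoter, and in 30.4% of the 79 higher genes with a difference of at least 2. Among antiviral effectors 14 of 25 held it (56.0%) and among the GTPases 7 of 7. Shown are the 250 bases before the start of 5 genes with large differences, from chr19:34640639-34640888 and chr19:34583279-34583528, chr11:58199306-58199555, chr3:142559794-142560043 and chr10:128270248-128270497, all on the plus strand, with the motif, on either strand, in capitals.
Ifit1: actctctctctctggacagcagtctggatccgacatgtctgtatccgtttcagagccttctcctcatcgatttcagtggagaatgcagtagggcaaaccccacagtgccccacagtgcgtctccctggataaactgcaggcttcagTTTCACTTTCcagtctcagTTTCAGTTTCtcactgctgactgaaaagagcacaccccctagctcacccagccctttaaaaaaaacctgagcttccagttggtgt
Ifit3: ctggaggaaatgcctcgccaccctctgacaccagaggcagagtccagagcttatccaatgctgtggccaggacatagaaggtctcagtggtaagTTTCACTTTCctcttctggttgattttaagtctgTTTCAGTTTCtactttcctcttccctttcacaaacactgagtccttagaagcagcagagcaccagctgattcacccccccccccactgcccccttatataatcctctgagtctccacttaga
Igtp: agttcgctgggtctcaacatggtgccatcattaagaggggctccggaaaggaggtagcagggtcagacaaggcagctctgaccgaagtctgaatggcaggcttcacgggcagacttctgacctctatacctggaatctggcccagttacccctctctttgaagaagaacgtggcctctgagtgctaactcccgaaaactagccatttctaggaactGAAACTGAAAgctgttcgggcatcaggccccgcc
Gbp3: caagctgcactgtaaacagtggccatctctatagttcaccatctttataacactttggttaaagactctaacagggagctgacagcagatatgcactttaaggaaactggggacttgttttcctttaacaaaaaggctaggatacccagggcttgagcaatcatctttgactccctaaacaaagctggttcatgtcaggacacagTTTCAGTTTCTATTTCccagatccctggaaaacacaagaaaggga
Stat2: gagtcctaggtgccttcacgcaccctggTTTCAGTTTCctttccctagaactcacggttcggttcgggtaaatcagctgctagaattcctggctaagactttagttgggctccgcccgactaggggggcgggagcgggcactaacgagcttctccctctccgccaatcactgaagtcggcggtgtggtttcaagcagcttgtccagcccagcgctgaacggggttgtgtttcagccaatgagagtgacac
In *Ifit1* the matches began 104 and 85 bases before the start, and in *Ifit3* 156 and 122 bases before it. *Gbp3* held overlapping matches at 45 and 39 bases before the start of 1 of its promoters, and none in a second promoter window, and *Igtp* and *Stat2* held 1 match each, at 34 and 222 bases. *Igtp*, an interferon-inducible GTPase, had values of 5.35 to 6.22 on the 4 wild-type and the 2 unexposed *Cln3Δex7/8* arrays and of 8.99 and 9.0 on the NaCl-injected arrays (difference 3.14, standard error 0.83). *Gbp3*, of the guanylate-binding proteins, had a difference of 3.42 (standard error 1.08). The letters were not found in the window of *Irf7*. A match describes the sequence alone.

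Microglial genes differed less evenly than interferon genes. Of 27 measured genes of reactive microglia and macrophages 6 were higher and 0 lower (22.2%, against 6.17% higher and 4.96% lower over all genes; median 0.73), of 15 homeostatic microglia genes 4 were higher and 1 lower (median 0.73), and of 16 complement genes 2 were higher (median 0.70). The spread between the unexposed wild-type arrays was wide here: the mean over the reactive list was 6.49 on one and 7.87 on the other, against 7.92 and 7.62 with high light, and without the second array the median was 0.40, without the first 1.20. *Fcer1g*, the signaling chain of Fc receptors, showed this spread, with 6.21 and 8.69 in unexposed and 8.34 and 7.88 in exposed wild-type retinas, beside 7.19 and 6.80 in unexposed and 11.10 and 10.23 in exposed *Cln3Δex7/8* retinas (difference 3.01, standard error 1.04). *C1qb*, of the first complement component, had a difference of 2.76 (standard error 1.09), and *Cxcl10*, an interferon-induced chemokine, one of 2.99 (standard error 0.89). *Aif1*, which encodes the microglial marker Iba1, had a light effect of 3.08 in *Cln3Δex7/8* and 1.49 in wild-type retinas, but its difference of 1.58 had an interval from -0.84 to 4.01. Of 14 measured genes of infiltrating leukocytes 0 were higher and 3 lower (21.4%, against 4.96% lower over all genes), with a median of 0.06.

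Of the 15 homeostatic microglia genes 11 had a difference above 0, but single markers of resting microglia differed in direction. *Cx3cr1*, the fractalkine receptor, had values of 5.63 and 6.30, then 5.94 and 5.42 in wild-type, and of 4.88 and 4.74, then 6.86 and 6.32 in *Cln3Δex7/8* retinas (difference 2.06, standard error 0.51, limma adjusted p = 0.208). *Tmem119*, a marker of resident microglia, lay instead at 6.92 and 6.85, then 8.61 and 8.10 in wild-type, and at 7.07 and 7.23, then 7.72 and 7.36 in *Cln3Δex7/8* retinas, and differed by -1.08 (standard error 0.33). Outside this list, the costimulatory receptor *Cd40* also had a negative difference (-1.50, standard error 0.41). Of the genes named in the study, *Apod*, an apolipoprotein of glia, had a difference of 2.48 (standard error 0.65), with values of 5.79 and 6.64, then 6.74 and 6.24 in wild-type and of 8.24 and 6.80, then 10.80 and 9.75 in *Cln3Δex7/8* retinas. For *Il1b*, *Tnf* and *Ccl2* the differences were -0.58 (interval -1.22 to 0.06), 0.55 (interval -0.12 to 1.22) and 0.22 (interval -1.12 to 1.56). For *Tspo*, *Gfap* and *Wfdc17* they were 0.73, -0.68 and 0.10, and for *Rpe65* and *Atp5b* 0.18 and 0.10, and each of these intervals held 0.

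**Figure D3:**
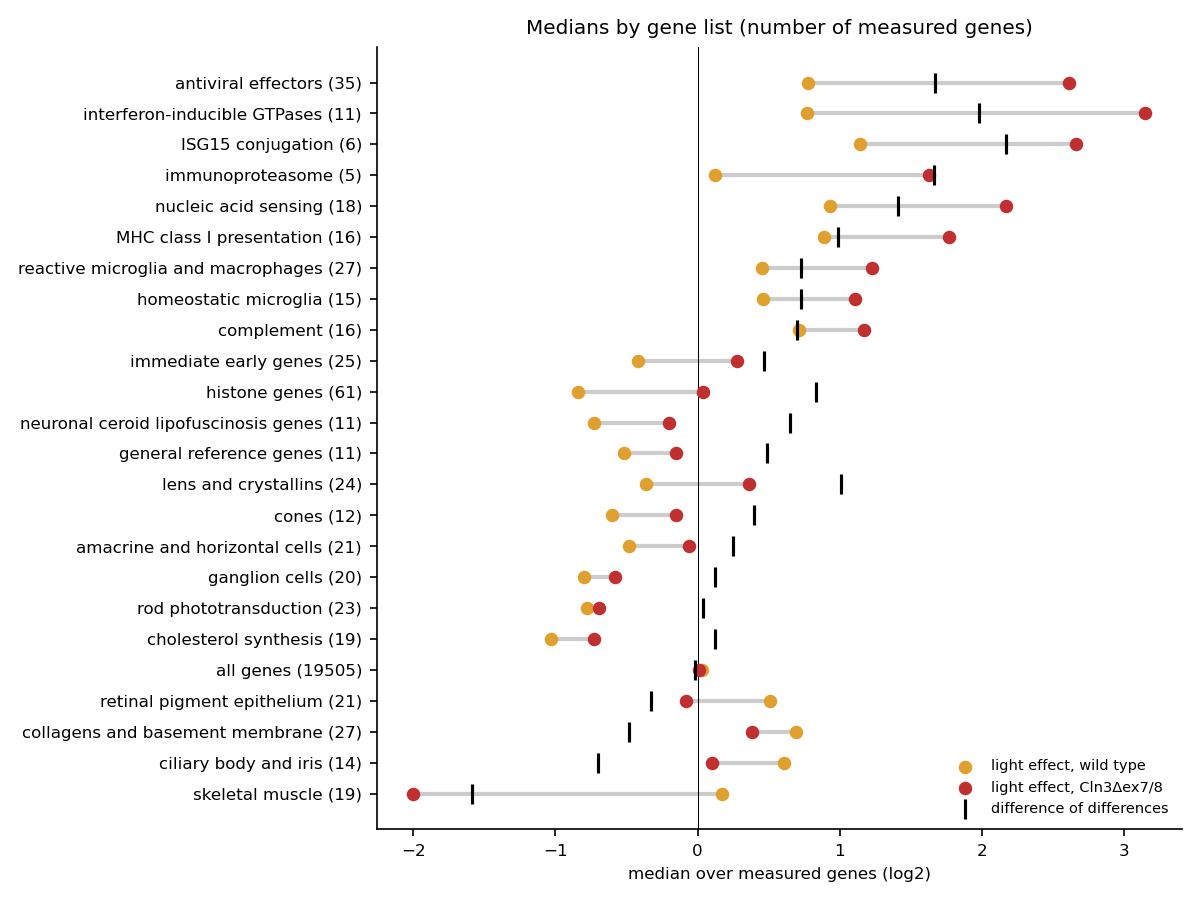
Median light effect of each gene list in wild-type (orange) and *Cln3Δex7/8* retinas (red) and median genotype by light difference (black bar), on the log2 scale, with the number of measured genes in brackets. The interferon lists lie at the right through the red points, with medians of 1.66 to 2.17 for antiviral effectors, GTPases, ISG15 conjugation and the immunoproteasome, and the histone list differs through the orange point.

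Immediate early genes, which neurons and glia switch on within minutes of a stimulus, were higher in 9 of 25 cases and lower in 0 (36.0%, against 6.17% higher and 4.96% lower over all genes), with a median of 0.47. The methods state no time between light and the retinas used for the arrays, so that the stimulus behind these values is not known. *Egr1* had the largest of these differences. It stood at 10.08 and 11.33, then 11.36 and 11.16 in wild-type retinas, and at 8.66 and 8.43, then 13.87 and 13.32 in *Cln3Δex7/8* retinas (difference 4.50, standard error 0.90, limma adjusted p = 0.151, and 0.00285 over the 4 groups). Its unexposed *Cln3Δex7/8* values lay below both unexposed wild-type values, by 2.16 in the mean, and this gap is part of the difference. The phosphatase *Dusp1* moved in opposite directions, from 12.46 and 12.25 to 11.07 and 11.39 in wild-type and from 11.42 and 11.13 to 12.55 and 12.64 in *Cln3Δex7/8* retinas (difference 2.44, standard error 0.50). The nuclear receptor *Nr4a2* did so on a smaller scale (difference 1.34, standard error 0.29). Among p53 targets 4 of 13 were higher (30.8%, against 6.17% of all genes) and 0 lower, among them the cell cycle inhibitor *Cdkn1a* with light effects of 3.12 in *Cln3Δex7/8* and 0.88 in wild-type retinas (difference 2.23, standard error 0.53).

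The second kind consisted of genes that were lower after high light in wild-type retinas and near their unexposed level in exposed *Cln3Δex7/8* retinas, and histone genes were a large family among them. Of 61 replication-dependent and variant histone genes, a family picked after these values were seen, 51 had a difference above 0, and 33 were higher and 0 lower (54.1%, against 6.17% and 4.96% of all genes). The median light effect was -0.84 in wild-type and 0.04 in *Cln3Δex7/8* retinas, and the median difference 0.83. The mean over the 61 genes was 10.48 and 10.56 in unexposed wild-type retinas, 9.75 and 9.55 after high light, 10.41 and 10.34 in unexposed and 10.28 and 10.44 in exposed *Cln3Δex7/8* retinas. On the minocycline arrays it was 10.44 and 10.13, also above both high-light wild-type arrays. Under the Y term the median was 0.20.

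*H2bc12* had values of 9.05 and 9.57 without light and 7.55 and 7.52 with high light in wild-type retinas, and of 8.72 and 8.53, then 8.97 and 9.28 in *Cln3Δex7/8* retinas (difference 2.27, standard error 0.39, limma adjusted p = 0.116, and 0.0144 over the 4 groups). *H2bc7* differed by 2.12 (standard error 0.36) and *H3c10* by 1.79 (standard error 0.28, limma adjusted p = 0.0955). Histone genes of a class are nearly identical in their coding sequence and their clusters may share transcripts. Messages of replication-dependent histone genes have a stem-loop in place of a poly(A) tail, and CCAAT elements occur in many histone promoters. CCAAT, searched on both strands, occurred in 47 of 56 histone promoters (83.9%), against 42.2% of all promoters of genes tested, while the interferon-stimulated response element occurred in 1.79%. Shown are the 250 bases before the start of *H2bc12* (plus strand, chr13:22035571-22035820) and *H2bc7* (minus strand, chr13:23574208-23574457), with CCAAT or its reverse complement in capitals.
H2bc12: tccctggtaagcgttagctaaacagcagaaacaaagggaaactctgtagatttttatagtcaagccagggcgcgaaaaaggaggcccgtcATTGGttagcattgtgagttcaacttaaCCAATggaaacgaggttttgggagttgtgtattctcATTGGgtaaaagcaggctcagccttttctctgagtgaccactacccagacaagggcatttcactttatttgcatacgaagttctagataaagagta
H2bc7: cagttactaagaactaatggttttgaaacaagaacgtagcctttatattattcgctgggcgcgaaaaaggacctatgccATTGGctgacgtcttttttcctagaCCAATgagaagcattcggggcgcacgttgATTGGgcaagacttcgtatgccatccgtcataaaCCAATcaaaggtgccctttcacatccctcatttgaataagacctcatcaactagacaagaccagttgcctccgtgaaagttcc
*H2bc12* held 3 matches, the nearest 96 bases before the start, and *H2bc7* held 4, the nearest 83 bases before it.

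Single genes of other families had the same form, of which *Pcsk1n* and *Mboat7* were named after their values were seen. *Pcsk1n*, the proSAAS precursor of neuroendocrine cells, was at 10.92 and 11.50 without light and at 7.83 and 8.24 with high light in wild-type retinas, and at 10.51 and 9.72, then 9.94 and 9.68 in *Cln3Δex7/8* retinas. Its difference was 2.87 (standard error 0.42, limma adjusted p = 0.0955, and 0.0166 over the 4 groups), and 3.45 under the Y term. *Mboat7*, an acyltransferase of phosphatidylinositol, differed by 2.22 (standard error 0.33), and by 2.24 under the Y term. *Mmp9*, a gelatinase, had a light effect of -1.73 in wild-type and -0.05 in *Cln3Δex7/8* retinas (difference 1.68, standard error 0.34), and *Dhcr7*, the last enzyme of cholesterol synthesis, one of -1.38 and 0.04 (difference 1.42, standard error 0.34). General reference genes, expressed in all cells, also leaned this way, with a median difference of 0.49 and 2 of 11 higher (18.2%, against 6.17% of all genes) and 0 lower. For cytosolic ribosomal protein genes the median was 0.30, with 12 of 60 higher (20.0%) and 1 lower. After quantile normalization these medians were 0.30 and 0.22, and that of histone genes was 0.75. Mitochondrial ribosomal protein genes had a median difference of 0.22, with 12 of 76 higher (15.8%) and 1 lower.

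Photoreceptor genes as a group showed little difference. Of 23 rod phototransduction genes 2 were higher and 0 lower, a share of 8.70% against 6.17% higher and 4.96% lower over all genes, with a median of 0.04 and median light effects of -0.69 in *Cln3Δex7/8* and -0.78 in wild-type retinas. *Pde6g*, the inhibitory subunit of rod phosphodiesterase, stood apart, with 16.48 and 15.79, then 14.42 and 14.47 in wild-type and 16.15 and 15.92, then 15.79 and 16.03 in *Cln3Δex7/8* retinas (difference 1.56, standard error 0.35, limma adjusted p = 0.177). Of 12 cone genes 2 were higher (16.7%, against 6.17% of all genes), among them the green-sensitive opsin *Opn1mw* (difference 1.02, interval 0.24 to 1.80). Amacrine and horizontal cell genes were higher in 6 of 21 cases (28.6%) and lower in 0 (median 0.25), among them the vesicular acetylcholine transporter *Slc18a3* (difference 1.57, standard error 0.42). Among 20 ganglion cell genes 4 were higher (20.0%, against 6.17% of all genes) and 1 lower (5%, against 4.96%), with a median of 0.12. After quantile normalization the median was 0.12 for amacrine and horizontal cell genes and 0.02 for ganglion cell genes. Of 23 glutamate, GABA and glycine receptor genes 0 were higher and 1 lower (4.35%, against 4.96% of all genes), with a median of -0.29. The synuclein *Sncg* had values of 14.62 and 14.85, then 13.87 and 14.18 in wild-type and of 14.35 and 13.96, then 14.76 and 14.60 in *Cln3Δex7/8* retinas (difference 1.24, standard error 0.31), and *Thy1*, a surface protein of ganglion cells, differed by 1.28 (standard error 0.38).

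Genes of the neuronal ceroid lipofuscinoses, the disease family of *Cln3*, were higher in 3 of 11 cases and lower in 0 (27.3%, against 6.17% higher and 4.96% lower over all genes), with a median of 0.65. *Cln6*, of the endoplasmic reticulum, had light effects of 1.41 in *Cln3Δex7/8* and 0.29 in wild-type retinas (difference 1.12, standard error 0.30). *Tpp1*, a lysosomal peptidase, had ones of 0.34 and -0.53 (difference 0.86, standard error 0.27), and *Grn*, the precursor of progranulin, had a difference of 1.34 (standard error 0.53). Of 24 lysosomal hydrolases and membrane proteins 2 were higher and 1 lower (8.33% and 4.17%, near the 6.17% and 4.96% of all genes; median 0.46).

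Among lower genes the most negative differences belonged to secreted and matrix proteins that were high after high light in wild-type retinas and flat in *Cln3Δex7/8* retinas. *Optc*, the small proteoglycan opticin that the ciliary body secretes into the vitreous, was at 6.50 and 6.76 without light and at 12.07 and 10.80 with high light in wild-type retinas, and at 7.59 and 5.75, then 6.63 and 7.09 in *Cln3Δex7/8* retinas. Its difference was -4.62 (standard error 1.06, limma adjusted p = 0.180, and 0.0246 over the 4 groups). *Gpx3*, the secreted glutathione peroxidase, and *Fbln1*, a glycoprotein of elastic fibers and basement membranes, had differences of -4.50 (standard error 1.33) and -4.11 (standard error 1.07), with light effects of 4.79 and 4.14 in wild-type and 0.28 and 0.04 in *Cln3Δex7/8* retinas. *Penk*, the precursor of enkephalin peptides, moved in opposite directions, from 10.29 and 10.67 to 13.95 and 13.31 in wild-type and from 10.43 and 9.72 to 8.93 and 9.42 in *Cln3Δex7/8* retinas (difference -4.05, standard error 0.85, limma adjusted p = 0.159, and 0.00241 over the 4 groups). The proteoglycans *Ogn*, *Lum* and *Vcan* had differences of -2.67, -2.52 and -1.82, and for *Lum* the unexposed *Cln3Δex7/8* values (8.04 and 6.15) were themselves apart.

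Transporters and smaller secreted proteins were also among the lower genes, and of those below *Slc26a4* and *Gsta3* moved in opposite directions between the genotypes. *Slc26a4*, the anion exchanger pendrin, and *Slc13a4*, a sulfate transporter, differed by -2.31 (standard error 0.77) and -2.56 (standard error 0.75). The fatty acid carrier *Fabp4*, the defensin *Defb9* and the glutathione transferase *Gsta3* differed by -2.31, -2.28 and -1.88, and *Cstad* and *Arhgef5* by -1.71 (standard error 0.35) and -1.59 (standard error 0.34). *Per2*, a gene of the circadian clock, had a light effect of 1.69 in wild-type and 0.70 in *Cln3Δex7/8* retinas (difference -0.98, standard error 0.31). Of 14 ciliary body and iris genes 3 were lower and 0 higher (21.4%, against 4.96% of all genes lower), with a median of -0.70, and of 27 collagen and basement membrane genes 6 were lower and 3 higher (22.2% and 11.1%, median -0.48). The mean over the ciliary body and iris genes was 8.94 and 8.48 on the exposed wild-type arrays, 7.27 to 7.66 on the other 6 arrays compared, and 7.61 and 8.86 on the minocycline arrays with and without Y-linked transcripts. Under the Y term the median turned to 0.99, *Optc* to 0.58, *Gpx3* to 3.46 and *Fbln1* to 2.63. For the 21 retinal pigment epithelium genes, *Slc26a4* among them, 0 were higher and 1 lower (4.76%, median -0.33). Their most negative difference was -4.07. Their mean was 9.66 and 9.10 on the exposed wild-type arrays, 7.96 to 8.82 on the other 6, and 10.66 on the minocycline array without Y-linked transcripts. The part of tissue from the front of the eye or behind the retina in these differences was not tested.

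**Figure D4:**
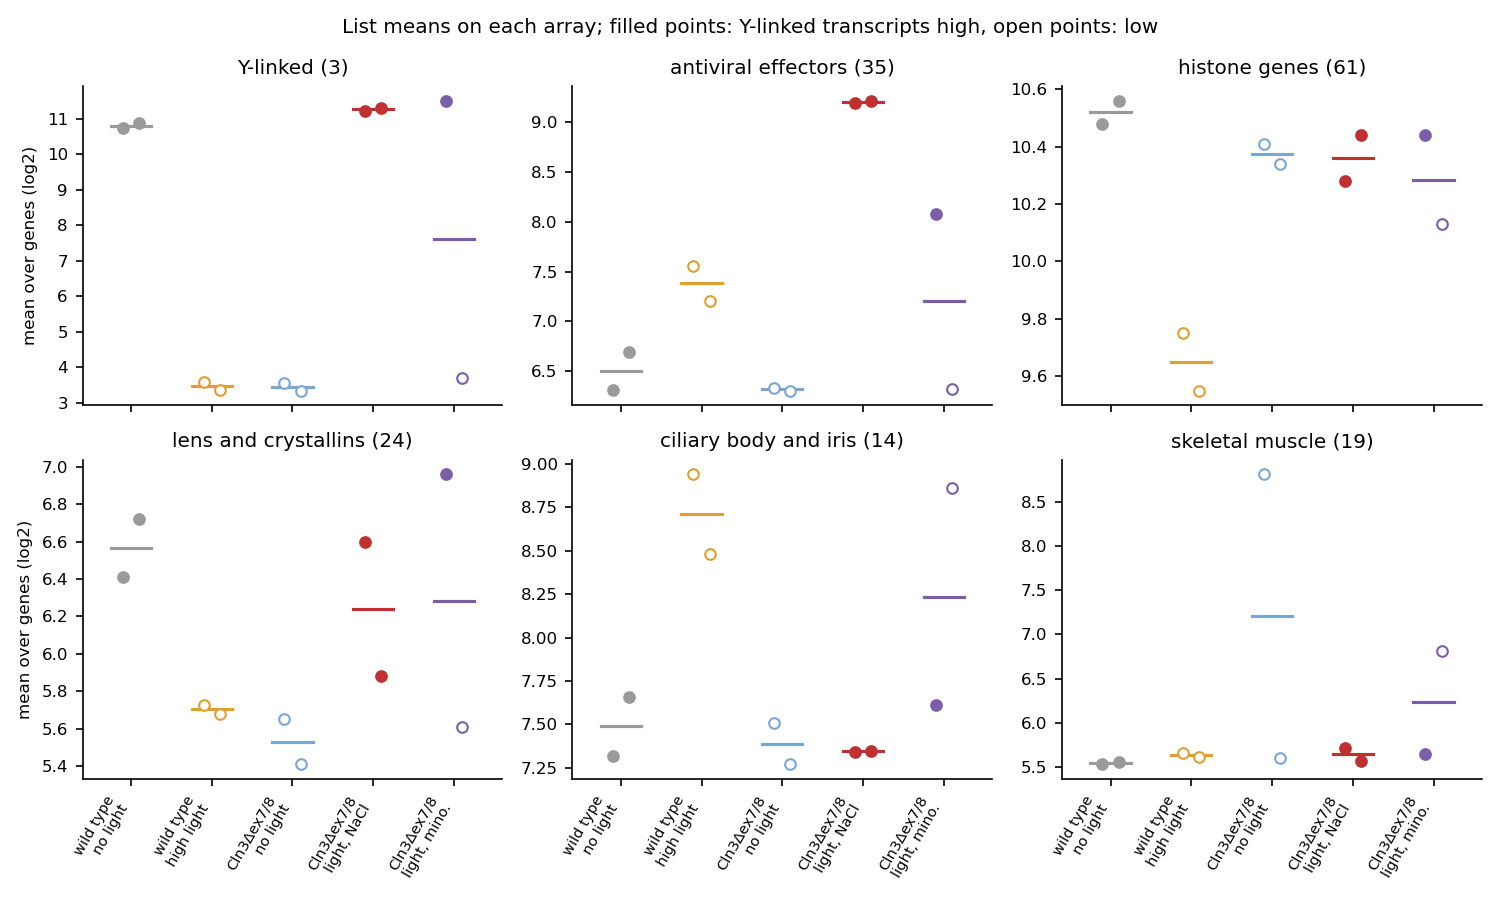
Mean over the measured genes of 6 lists (number in brackets) on each of the 10 arrays (vertical axes, log2), with a line at the mean of each pair. Points are filled where Y-linked transcripts were high and open where they were low; antiviral effectors reach 9.19 and 9.22 on the NaCl-injected arrays, ciliary body and iris genes are high on the exposed wild-type arrays and on 1 minocycline array, and skeletal muscle genes are high on 1 unexposed *Cln3Δex7/8* array.

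Some lower genes had another form. *Ppp1r3a*, a glycogen-targeting subunit of protein phosphatase, was at 4.16 to 4.79 on the 4 wild-type arrays and at 6.67 and 6.58 in unexposed *Cln3Δex7/8* retinas, and at 4.39 and 4.52 after light (difference -1.83, standard error 0.29, limma adjusted p = 0.0955, and 0.0273 over the 4 groups). Both unexposed *Cln3Δex7/8* arrays were high in it, including the one without muscle transcripts. *Tnni2*, a skeletal muscle troponin, was high only on the array with high skeletal muscle transcripts (9.43, against 5.57 on its partner), and its difference of -2.69 came from that array. The X-linked demethylase *Kdm6a*, which is expressed from both X chromosomes, was at 13.48 and 13.27, then 14.60 and 14.62 in wild-type and at 14.33 and 14.31, then 13.39 and 13.46 in *Cln3Δex7/8* retinas (difference -2.13, standard error 0.41), the mirror image of the Y-linked genes, with a difference of 0.01 under the Y term. *Tmem181c-ps*, a pseudogene with close copies, differed by -2.19 (standard error 0.67).

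Lens genes were higher in 11 of 24 cases and lower in 0 (45.8%, against 6.17% higher and 4.96% lower over all genes), with a median of 1.01. The crystallin *Cryaa* had values of 12.46 and 13.24, then 7.50 and 7.18 in wild-type and of 8.64 and 7.03, then 13.35 and 9.31 in *Cln3Δex7/8* retinas, and differed by 9.01 (standard error 2.32, adjusted p = 0.215 by limma). *Cryba1* and *Crygs* differed by 8.66 and 4.62. The NaCl-injected pair in *Cryaa* was thus uneven, and so was the minocycline pair, at 14.58 and 8.16.

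Level and direction went together. Genes were ranked by their mean over all arrays and divided into 5 level groups of 3900 to 3902 genes. Over all genes 6.17% were higher and 4.96% lower by the unadjusted threshold. In the dimmest group 44 genes were higher and 209 lower by the unadjusted threshold, and in the next 139 and 329. In the following groups, toward the brightest, the counts were 316 and 186, 362 and 146, and 342 and 97. Olfactory and vomeronasal receptor genes were a family picked after its values were seen. They were lower in 124 of 1410 cases (8.79%, against 4.96% of all genes) and higher in 14 (0.993%, against 6.17%), with a median of -0.21. The median light effect of the dimmest group was 0.22 in wild-type and 0.10 in *Cln3Δex7/8* retinas, and that of the brightest -0.29 and -0.23.

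**Figure D5:**
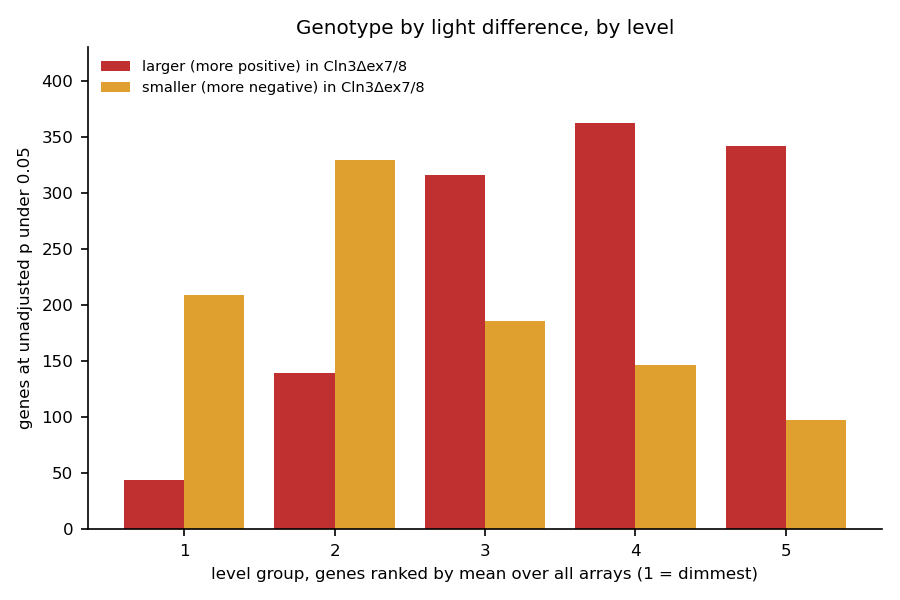
Number of genes with a genotype by light difference at an unadjusted p under 0.05 (vertical axis) in each of 5 level groups of genes (horizontal axis, 1 is the dimmest). Bars give genes with a positive difference (red) and a negative difference (orange), from 44 and 209 in the dimmest to 342 and 97 in the brightest group.

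Opposite directions in both genotypes were counted gene by gene. In 430 genes (2.2%) both NaCl-injected arrays lay above both unexposed *Cln3Δex7/8* arrays while both exposed wild-type arrays lay below both unexposed wild-type arrays, and in 375 genes (1.92%) the reverse held. Of these, 309 and 222 had an unadjusted p under 0.05 for the difference. The former group held *Ifit2*, *Trim21*, *Dusp1*, *H2bc12* and *Sncg*, and the latter *Penk*, *Slc26a4* and *Gsta3*. With 2 arrays per group, separation of this kind also arises in some genes without any light effect. The share to be found by chance was not computed, so that these counts show no excess of opposite movement. The sexes, as read from Y-linked transcripts, changed in opposite directions in the same way. Sex and light therefore cannot be told apart in these counts.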

How the data were processed

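Retinal RNA of 10 mice, 2 per group and given as biological duplicates, was measured on Affymetrix mouse arrays, described as Clariom S in the labels. The authors processed the scans with Affymetrix Expression Console and deposited normalized log2 signals per transcript cluster, from 2.7 to 19.5, with array medians of 7.135 to 7.25. The deposited values were used as given, with no background correction of their own. Replicate numbers follow accession order and only name arrays. Pearson's r across genes within a pair was 0.988 to 0.994, and the number of arrays limits the precision.

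Of 22206 clusters, 19572 had 1 gene symbol in the platform annotation, which can be old, and 2634 were not listed there. For 55 genes with several clusters the one with the highest mean was kept. The difference was fitted with limma 3.58.1 (R 4.3.3; lmFit and eBayes, two-sided, Benjamini-Hochberg adjustment, threshold 0.05) over 5 groups, with 5 residual and 6.492 prior degrees of freedom. The median standard error was 0.3388. The genes called higher or lower have a positive or negative difference at an unadjusted p under 0.05 in this fit unless another fit is named. The script was tested on simulated data. Intervals measure the spread between these arrays. Summaries used Python 3.11.15, pandas 2.3.3, numpy 2.4.6 and matplotlib 3.10.9.

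Genes named were the 12 with the largest difference in each direction at that p with the same sign in all 16 choices of 1 array per group, up to 12 in each direction called over the 4 groups, up to 5 of each list by p, genes named in the study and Y-linked genes; many of these are covered by counts only. *Ifit1*, *H2bc12*, *H2bc7*, *H3c10*, *Pcsk1n* and *Mboat7* were named after their values were seen. The 52 lists (832 of 916 genes measured, 5 through an older symbol), the comparison and the rule were chosen with earlier results of these data known, and the histone, ribosomal protein and receptor families after values were seen. Lists are described by counts and medians, with no set test. Promoters were RefSeq, GRCm38.p6. Alternatives were the 4 groups alone, a Y term, trend and robust settings, the methods' t-test, quantile normalization, centring, a filter on the 30% dimmest genes, all clusters, size limits and leaving out each array.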

Additional observations from a re-analysis of the deposited data

Results flagged for a closer look

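Among the genes with values in the text, the following had both exposed arrays of 1 genotype above both of its unexposed arrays. In the other genotype both exposed arrays lay below both unexposed ones. The sexes on the arrays also changed in opposite directions between the genotypes, so that sex and light cannot be told apart in these genes. None passed an adjusted p of 0.05 for the difference in limma over 5 groups. With 2 arrays per group, such separation also arises in some genes without any light effect. Of immune genes, *Ifit2* (2.15), *Trim21* (2.68) and *Ly6c1* (3.42) lay higher after light in *Cln3Δex7/8* and lower in wild-type retinas, and *Cd40* (-1.50) did the reverse. The immediate early genes *Dusp1* (2.44) and *Nr4a2* (1.34), the histone genes *H2bc12* (2.27) and *H2bc7* (2.12), and *Tpp1* (0.86), *Opn1mw* (1.02), *Sncg* (1.24) and *Thy1* (1.28) were of the former kind. *Penk* (-4.05), *Slc26a4* (-2.31), *Gsta3* (-1.88), *Lum* (-2.52) and *Tnni2* (-2.69) were of the latter, the last with skeletal muscle transcripts on 1 unexposed *Cln3Δex7/8* array. The lens crystallins *Cryaa* (9.01) and *Cryba1* (8.66) were of the former kind. The Y-linked *Eif2s3y* (18.16), *Uty* (16.32) and *Kdm5d* (11.01) and the X-linked *Kdm6a* (-2.13) followed the sexes of the mice on the arrays, and no group of the comparison mixed them.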

How the results depend on the processing

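With 2 arrays per group the counts depend on the fit and on single arrays. At an adjusted p under 0.05 the counts of higher and lower genes, 0 and 0 over 5 groups, were 68 and 11 over the 4 groups compared, 2 and 1 under the Y term, 3 and 0 by the methods' t-test with pooled spread and 3 and 0 with trend and robust settings. Leaving out 1 array gave 0 to 1 higher and 0 to 9 lower genes, with 9 lower without *Cln3Δex7/8* no light replicate 2. At an unadjusted p, 1203 higher and 967 lower genes became 612 and 330 with a difference of at least 1 in size, and 90 and 16 with at least 2. The Y term gave 622 higher genes and leaving out the 30% dimmest genes 596 lower genes. Leaving out 1 array gave 722 to 1365 higher and 630 to 1239 lower genes, with both lowest counts without *Cln3Δex7/8* no light replicate 2. No paired analysis was possible because the labels give no shared replicate numbers.

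Under the Y term the list medians became -0.69 for antiviral effectors, -1.92 for interferon-inducible GTPases, -1.09 for MHC class I, -0.06 for reactive microglia, -0.29 for immediate early genes, -0.70 for lens, 0.99 for ciliary body and iris, 0.38 for rod phototransduction and 0.20 for histone genes. Without the 30% dimmest genes the medians were 2.24 for antiviral effectors, 0.72 for immediate early genes and 1.39 for lens. Leaving out 1 array gave medians of 1.49 to 2.11 for antiviral effectors, 1.64 to 3.12 for GTPases (3.12 without wild-type no light replicate 1), 0.65 to 1.40 for MHC class I, 0.40 to 1.20 for reactive microglia, 0.40 to 0.60 for immediate early genes, 0.70 to 1.20 for lens, -0.85 to -0.64 for ciliary body and iris and 0.72 to 1.01 for histone genes. The interferon-stimulated response element occurred in 5.69% of promoters of higher genes, 25% over the 4 groups and 30.4% at a difference of at least 2.

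Single genes whose difference turned sign under the Y term were *Usp18* -2.65, *Ifit1* -4.21, *Ifit2* -0.11, *Ifit3* -5.09, *Ifit3b* -5.30, *Rtp4* -4.03, *Parp12* -1.72, *Gbp3* -3.26, *Igtp* -1.80, *Stat2* -1.56, *Irf9* -2.29, *Ifih1* -0.76, *Ube2l6* -2.73, *Ifi211* -4.58, *Ly6c1* -1.21, *Tap1* -0.83, *H2-Q4* -1.37, *Psme1* -0.14, *Cx3cr1* -0.12, *Fcer1g* -1.13, *C1qb* -2.64, *Aif1* -2.62, *Cxcl10* -1.17, *Egr1* -0.62, *Dusp1* -0.29, *Opn1mw* -0.16, *Thy1* -0.28, *Cryaa* -3.83, *Cryba1* -3.60, *Crygs* -3.06, *Optc* 0.58, *Gpx3* 3.46, *Fbln1* 2.63, *Penk* 0.93, *Ogn* 0.71, *Slc13a4* 1.26, *Lum* 2.65, *Slc26a4* 2.40, *Fabp4* 2.43, *Defb9* 0.58, *Vcan* 1.57, *Gsta3* 3.26, *Kdm6a* 0.01, *Eif2s3y* -1.62, *Kdm5d* -1.79, *Cln3* -0.78, *Grn* -0.96, *Ccl2* -2.32 and *Atp5b* -0.10. The others named in the report kept their sign under it. After quantile normalization *Rpe65* stood at -0.05 and *Atp5b* at 0.00. Leaving out 1 array gave -2.52 to 1.17 for *Gfap* (1.17 without wild-type no light replicate 1), -0.41 to 0.84 for *Ccl2* and -0.02 to 0.22 for *Atp5b* (both lowest without wild-type high light replicate 2), -0.99 to 1.19 for *Wfdc17* (-0.99 without wild-type no light replicate 2, -0.09 without wild-type high light replicate 2) and -0.47 to 0.82 for *Rpe65* (-0.47 without the NaCl-injected replicate 2, -0.44 without wild-type no light replicate 2). The cause of these turns was not tested, and the Y term rests on 2 arrays.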
